A study of Mus musculus with 36 samples.

Results

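Small nucleolar RNAs and small Cajal body RNAs were followed in the mouse suprachiasmatic nucleus (SCN), the hypothalamic pacemaker of circadian rhythm, across drug, light and time of day. The members were taken by name: every probe set that carries 1 gene symbol starting with Snora, Snord or Scarna, with the brightest probe set kept for each gene. This gave 69 genes from 73 probe sets, out of 65956 probe sets tested and 30638 with 1 symbol. They comprise 18 H/ACA RNAs (Snora), 45 C/D RNAs (Snord) and 6 Cajal body RNAs (Scarna).

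All mice were of the C57BL/6J strain, 8 to 14 weeks old, with a cannula in the lateral ventricle, so the infused agent was not restricted to the SCN. After 2 days of constant darkness they received 10 mM U0126, an inhibitor of the kinases MEK1/2, or the vehicle DMSO. They were then given 10 min of light at 100 lux (Light) or were left in the dark (Sham). The 12 groups are therefore U0126-Light, U0126-Sham, DMSO-Light and DMSO-Sham at circadian time (CT) 4, CT15 and CT22, which fall in the subjective day, the early night and the late night. Each group has 3 arrays, and each array holds the SCN of 2 pooled mice. Tissue was taken at a single interval, 60 min after the light or sham treatment by the sample labels. Slower responses were therefore not measured.

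H/ACA RNAs guide the conversion of uridine to pseudouridine, and C/D RNAs guide the addition of methyl groups to the ribose, mostly on ribosomal RNA. Cajal body RNAs guide the same changes on the small nuclear RNAs of the spliceosome. In mammals most of them are cut out of introns of host genes, many of which encode ribosomal proteins or factors of ribosome assembly, while a few are transcribed from promoters of their own. A probe set does not tell the mature RNA from its precursor or from the intron that holds it.

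The deposited values are log2 intensities, and 1 unit is a doubling of signal. Levels are given on that scale, and changes are differences of group means (log2 fold changes) from limma fitted to all 36 arrays, with the standard error (SE) of the fit. An RNA counted as called, that is higher or lower, when its change exceeded 1.3-fold and its p, adjusted over all probe sets by Benjamini-Hochberg, did not exceed 0.1. With groups of 3 an exact permutation p (two-sided) cannot fall below 0.1, so single RNAs were tested only in limma across all probe sets.

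Some facts of the arrays touch the results. The 96 probe sets of 5S ribosomal RNA, another small RNA, averaged 9.17, 8.18 and 8.08 on DMSO-Sham CT15 replicates 1, 2 and 3, and lay between 8.54 and 10.39 on the other 33 arrays. Replicates 2 and 3 of that group also had the lowest mean over the 69 members, 6.54 and 6.53, against 6.92 on replicate 1. Leaving out the 2 arrays leaves 1 in the group, so a loss of calls there cannot show that a change is absent. For each comparison that uses this group, the number of members called is given with and without the 2 arrays. Xist, transcribed in female cells, was at 3.24 to 3.79 on 15 of the 36 arrays, including both of these, and at 9.25 to 10.52 on the other 21, so its level differed between and within groups. Spry4, a feedback inhibitor induced through the MEK pathway, was lower with U0126 than with DMSO in all 6 comparisons, by log2 fold changes of -0.99 to -0.45, and was called in 5 of them. Array weights, which are lower for arrays that vary more, were 1.55 and 1.24 for DMSO-Sham CT15 replicates 2 and 3. Weights measure the spread around a group's own mean over all probe sets, and 2 arrays shifted alike pull that mean to themselves. They therefore cannot show whether the 2 arrays are sound. The lowest weight of all arrays was 0.249, for U0126-Sham CT22 replicate 3. The mean of 13 markers of SCN neurons, among them Avp and Vip, was 8.26 to 9.12 on the 36 arrays. In tissue of this kind, fewer cells of a type and less RNA per cell cannot be told apart.

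The brightest member was Snord110, with a mean level of 10.97 over 36 arrays, and the dimmest was Snord90 at 3.08. Levels of different probe sets cannot be ranked as amounts, because probes differ in their response. Within each gene, the range of the 12 group means had a median of 1.07 log2 units for C/D RNAs, 0.72 for H/ACA RNAs and 0.71 for Cajal body RNAs.

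**Figure D1:**
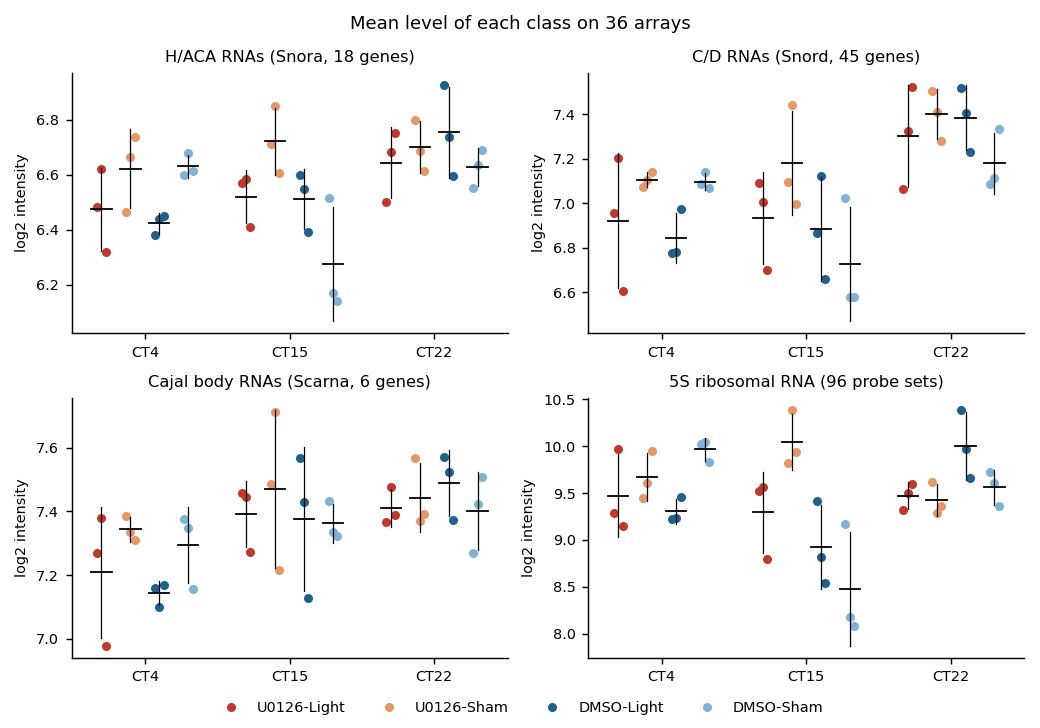
Mean log2 intensity of H/ACA, C/D and Cajal body RNAs and of 5S ribosomal RNA on each of 36 arrays (points), with the mean (horizontal line) and SD (vertical line) of 3 arrays, by time of day and group. The mean of the C/D RNAs was highest at CT22 in each of the 4 arms, but in DMSO-Sham their median change over CT4 was only 0.06. CT22 was not compared with CT4 in the Light arms. In DMSO-Sham at CT15, 2 of the 3 arrays were low in H/ACA RNAs, C/D RNAs and 5S ribosomal RNA.

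The clearest change was between late and early night. With the 4 arms averaged, 26 of the 69 RNAs were higher and 5 were lower at CT22 than at CT15 (44.9% of the members), where 7.3% of all probe sets were called, 2% higher and 5.31% lower. The median change of the members was 0.23, against 0.04 over all probe sets. By class, 21 of 45 C/D RNAs were higher and 2 lower, 3 of 18 H/ACA RNAs were higher and 2 lower, and 2 of 6 Cajal body RNAs were higher and 1 lower. No test of the difference between the classes was made. Without DMSO-Sham CT15 replicates 2 and 3, 24 members were higher and 6 lower, with a median change of 0.18. These were 19 C/D RNAs higher and 3 lower, 3 H/ACA RNAs higher and 2 lower, and 2 Cajal body RNAs higher and 1 lower.

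The 4 arms share no arrays, but limma used 1 estimate of the spread per probe set for all of them. Any difference in handling between times would also enter each arm, so the 4 comparisons of CT22 with CT15 are not independent repeats. In U0126-Light, 20 RNAs were higher and 4 lower, where 8.85% of all probe sets were called, 1.93% higher and 6.92% lower. In U0126-Sham 19 were higher and 9 lower, against 13.3% of all probe sets, 3.41% higher and 9.87% lower. In DMSO-Light 31 were higher and 5 lower, against 7.16% of all probe sets, 2.95% higher and 4.2% lower. In DMSO-Sham 24 were higher and 4 lower, against 5.96% of all probe sets, 3.25% higher and 2.71% lower. That arm had 2 higher and 3 lower without DMSO-Sham CT15 replicates 2 and 3, against 3.77% of all probe sets. With the level of 5S ribosomal RNA on each array as a covariate, DMSO-Sham had 2 higher and 5 lower (3.04% of all probe sets) and DMSO-Light had 3 higher and 5 lower (3.31%), so the excess of higher members in the DMSO arms was not seen under that setting. With all arrays and no covariate, more members were higher than lower in each arm, while in 3 of the 4 arms more probe sets were lower than higher. Called in the same direction in all 4 arms were 16 of the 69 RNAs (23.2%), against 1.46% of all probe sets (0.631% higher and 0.832% lower) and 1.37% of those with 1 symbol. The 13 that rose were Snora7a, Snora16a, Snord11, Snord15a, Snord16a, Snord35a, Snord35b, Snord42a, Snord83b, Snord87, Snord89, Snord110 and Snord111. The 3 that fell were Snora19, Snord64 and Snord98. No Cajal body RNA was called in all 4 arms, and 22 of the 69 members were called in none.

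**Figure D2:**
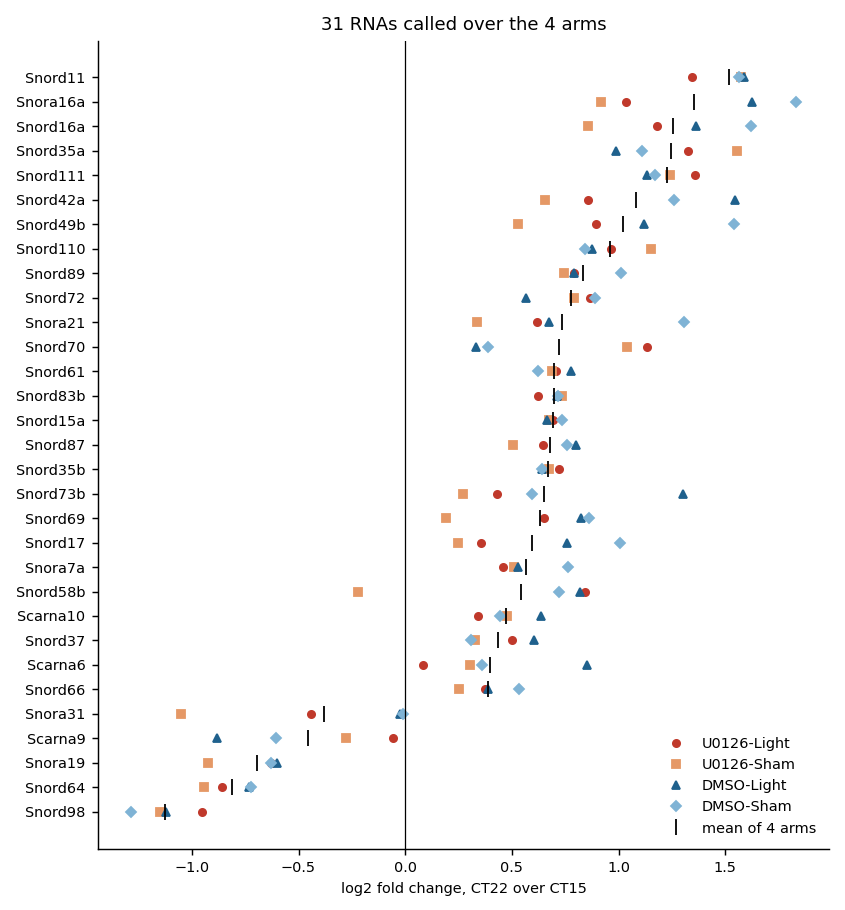
Log2 fold change at CT22 over CT15 in each of the 4 arms (coloured points) and their mean (black line) for the 31 RNAs called over the 4 arms. Snord11, Snord111, Snord35a and Snord110 rose by similar amounts in the 4 arms, and Snord98, Snord64 and Snora19 fell in each. Snord58b, whose probe set lies away from its annotated gene, lay below 0 in U0126-Sham only.

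Snord11, a C/D RNA within Nop58, a gene for a core protein of C/D particles, showed the largest rise. At CT22 its levels were 7.79, 8.36 and 8.91 in U0126-Light and 8.82, 8.69 and 8.68 in U0126-Sham, against 7.30, 7.14 and 6.58 in U0126-Light and 7.16, 7.41 and 6.89 in U0126-Sham at CT15. In vehicle at CT22 they were 8.45, 8.44 and 8.09 in DMSO-Light and 8.07, 8.02 and 8.43 in DMSO-Sham, against 6.65, 7.19 and 6.37 in DMSO-Light and 6.97, 6.29 and 6.57 in DMSO-Sham at CT15. Every CT22 array lay above every CT15 array, and the change over the 4 arms was 1.52 (SE 0.122, adjusted p = 1.4e-10). The 12 CT4 arrays, at 6.82 to 7.68 (median 7.38), overlapped the CT15 arrays and lay below every CT22 array.

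Snora16a, an H/ACA RNA in the noncoding host gene Snhg12, ran from 10.24 to 10.89 on the 12 CT22 arrays (median 10.41), against 8.08 to 9.80 at CT15 (median 9.20). The times did not overlap, and the change was 1.35 (SE 0.120, adjusted p = 7.87e-10). Snord35a, which lies in the ribosomal protein gene Rpl13a, ran from 8.74 to 9.59 at CT22 (median 9.14), against 7.62 to 8.61 at CT15 (median 7.83), a change of 1.24 (SE 0.111, adjusted p = 7.75e-10). Snord35b rose by 0.67 (SE 0.0977, adjusted p = 2.6e-06). Closely related RNAs such as Snord35a and Snord35b, Snord49a and Snord49b, or Snord73a and Snord73b may share signal on the array.

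Snord98, a C/D RNA within Ccar1, moved the other way. It ran from 3.75 to 5.31 on the CT22 arrays (median 4.84), against 5.64 to 6.11 at CT15 (median 5.84), and fell by 1.13 (SE 0.125, adjusted p = 3.48e-08). Snord64, which lies in the imprinted Snhg14 locus and is expressed from the paternal chromosome, ran from 8.08 to 8.56 at CT22 (median 8.41), against 8.89 to 9.46 at CT15 (median 9.14), and fell by 0.81 (SE 0.0604, adjusted p = 4.09e-11). Snora19, in Eif3a, ran from 3.97 to 4.79 at CT22, against 4.88 to 5.61 at CT15, and fell by 0.70 (SE 0.0811, adjusted p = 7.7e-08). None of the 3 had overlapping times. In all, the 12 arrays of the 2 times did not overlap for 9 of the 69 RNAs, 6 higher and 3 lower at CT22, against 5.79% of all probe sets (3.26% higher and 2.53% lower).

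**Figure D3:**
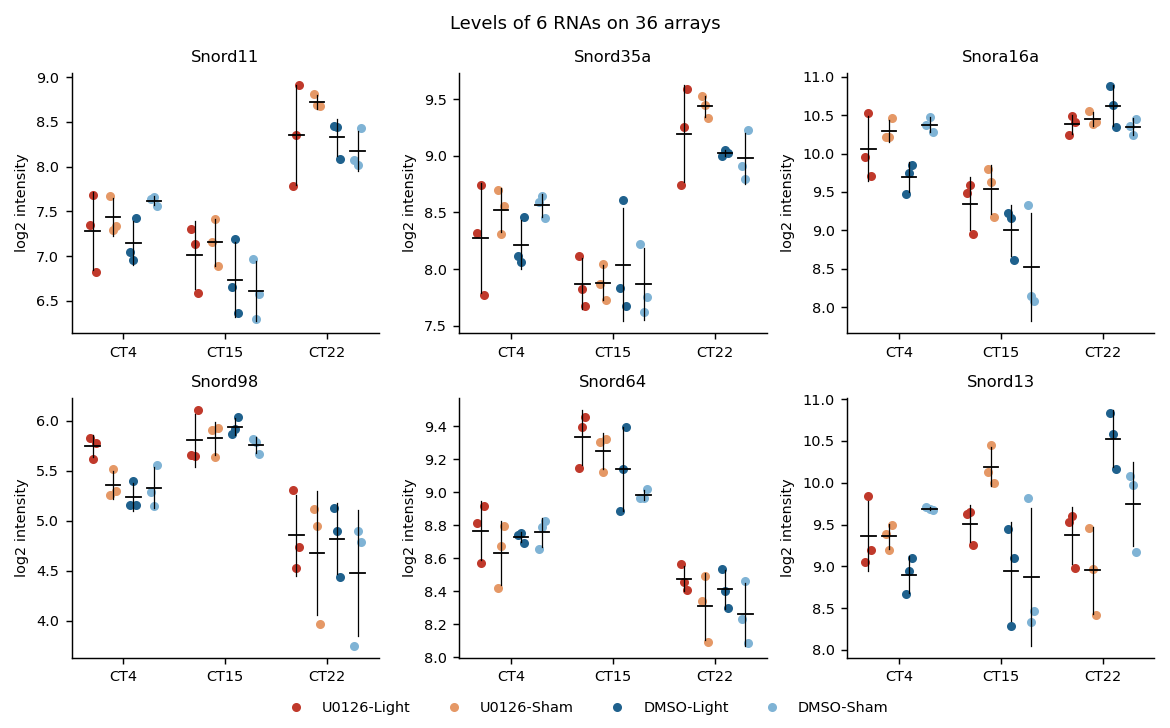
Log2 intensity of 6 RNAs on each of 36 arrays (points), with the mean (horizontal line) and SD (vertical line) of 3 arrays, by time of day and group. Snord11, Snord35a and Snora16a were high and Snord98 and Snord64 low on every CT22 array relative to CT15, while Snord13 differed between the drug arms.

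The level of 5S ribosomal RNA did not move the same way in the 4 arms. Its median change at CT22 over CT15 was 0.23 in U0126-Light, -0.68 in U0126-Sham, 1.25 in DMSO-Light and 1.35 in DMSO-Sham. In the U0126 pair of arms 16 RNAs rose and 4 fell in both, against 6.97% of all probe sets (1.19% higher and 5.78% lower). In the DMSO pair 19 rose and 4 fell in both, against 2.71% (1.2% higher and 1.51% lower). With the 5S level of each array as a covariate, 18 rose and 4 fell in both U0126 arms (6.76% of all probe sets, 1.19% higher and 5.57% lower), whereas in the DMSO pair 2 rose and 4 fell (1.08%, with 0.561% higher and 0.519% lower). Over the 4 arms, where 0.605% of all probe sets were then called in one direction, Snora16a and Snord11 rose and Snord64 and Snord98 fell in each. Without DMSO-Sham CT15 replicates 2 and 3, 2 RNAs rose and 3 fell in all 4 arms (0.905% of all probe sets): Snora16a and Snord11, and Snora19, Snord64 and Snord98. The averages over the 4 arms without those arrays were 1.15 for Snora16a, 1.43 for Snord11, 1.15 for Snord35a, -0.73 for Snora19, -0.81 for Snord64 and -1.14 for Snord98, and all 6 were called. The part of the 5S level in these results was not tested beyond this. Time of day and any difference in handling between times cannot be told apart, since the labels give no batch.

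The rises in the other RNAs were smaller or differed between the arms. Snord16a (in Rpl4) rose by 1.26, Snord111 (in Sf3b3) by 1.23, Snord42a (in Rpl23a) by 1.08 and Snord110 (in Nop56) by 0.96 over the 4 arms. Snord89, Snord83b, Snord15a, Snord87 and Snora7a rose by 0.57 to 0.83. Snord61 and Snord72 were called in 3 arms, at 0.70 and 0.78. Scarna10, a Cajal body RNA that in humans guides changes on the spliceosomal RNA U5, was 8.54 to 8.80 at CT22 (median 8.65), against 7.76 to 8.46 at CT15 (median 8.24), with a change of 0.47 (SE 0.0705, adjusted p = 3.48e-06) and calls in 3 arms. Scarna9, a guide for U2, fell by 0.46 over the 4 arms (SE 0.0966, adjusted p = 0.000334) and was called in both DMSO arms and in neither U0126 arm. The Sham arms differed by 0.33 (SE 0.273, adjusted p = 0.691), which was not called. In the Light arms the change was -0.06 under U0126 and -0.88 in DMSO, and the difference between these was not tested.

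Snord70 shares the host Nop58 with Snord11. Its changes at CT22 over CT15 were 1.13 in U0126-Light and 1.04 in U0126-Sham, both called, against 0.33 in DMSO-Light and 0.39 in DMSO-Sham. The Sham arms differed by 0.65 (SE 0.29, adjusted p = 0.348), which was not called. The difference between the Light arms was not tested.

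Host genes were compared with their guests. Of the 69 members, 59 lie within exactly 1 other gene in the reference annotation (52 host genes), 6 within several and 4 within none, and the strand of the members is not given there. For 32 members the host has a single-symbol probe set of its own, covering 29 host genes. Of these 32 RNAs 15 were called over the 4 arms at CT22 against CT15, and for 1 of the 15, Snord64, the host was called too. Snhg14 fell by 0.64 (SE 0.0574, adjusted p = 8.87e-10) beside Snord64. Nop58 had a change of -0.28 (SE 0.0372, adjusted p = 7.64e-07), below the fold threshold and opposite in sign to Snord11 and Snord70. Rpl4 had -0.04 (SE 0.0239) and Sf3b3 -0.09 (SE 0.0232), beside rises of their guests Snord16a and Snord111. Of the 10 RNAs with a host value that rose, 6 had a host with a negative change, and Snord11 and Snord70 among them share a host. The median change over the 29 host genes was itself -0.08, so a negative host was not particular to these RNAs. Ccar1 (-0.37) and Eif3a (-0.37), just short of the threshold of 0.38, had the same sign as Snord98 and Snora19. The host genes called were Rpl39 (0.50), Haus6 (-0.39) and Snhg14, and the guests of the first pair were not called, Snora69 at 0.09 and Scarna8 at -0.29.

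**Figure D4:**
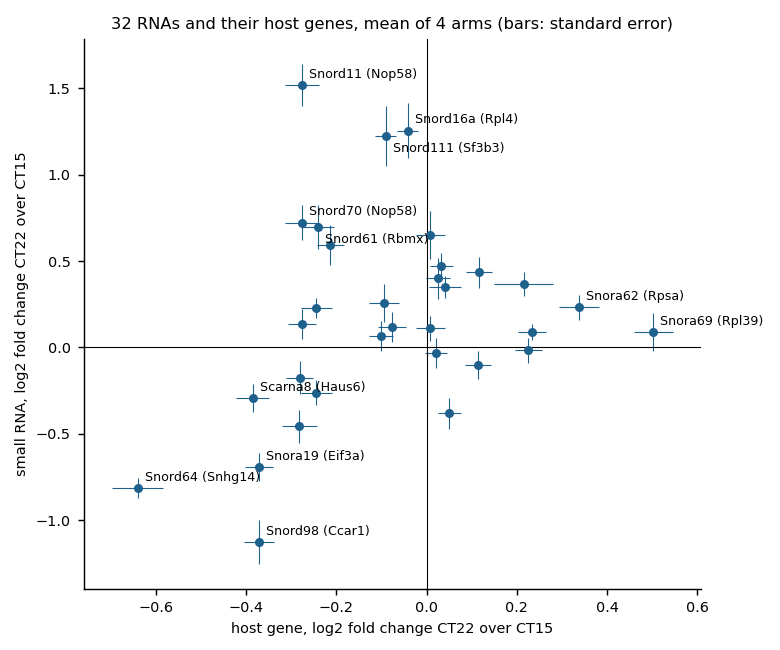
Log2 fold change at CT22 over CT15, averaged over the 4 arms, of 32 RNAs (vertical) and of the host gene that contains each (horizontal), with SE bars. Snord11 at 1.52 and Snord70 at 0.72 lie over one host at -0.28, and Snord64, Snord98 and Snora19 lie in the lower left with their hosts.

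The promoters of 3 host genes, chosen after the values were seen, are shown because their guests changed in all 4 arms, 1 upward and the other 2 downward. They were also chosen because each window holds the E-box CACGTG, letters that the CLOCK and BMAL1 activators can bind, among other factors. The sequences are from RefSeq on GRCm38.p6 and run from 250 bases before the annotated start to 50 after it, with the E-box in capitals.
Rpl13a, host of Snord35a, chr7:45128696-45128995, minus strand: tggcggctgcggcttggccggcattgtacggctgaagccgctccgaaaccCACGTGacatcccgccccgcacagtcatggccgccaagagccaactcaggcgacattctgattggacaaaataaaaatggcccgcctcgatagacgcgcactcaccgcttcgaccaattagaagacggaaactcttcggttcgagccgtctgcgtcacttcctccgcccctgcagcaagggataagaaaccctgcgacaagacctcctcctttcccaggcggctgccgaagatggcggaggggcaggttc
Ccar1, host of Snord98, chr10:62792319-62792618, minus strand: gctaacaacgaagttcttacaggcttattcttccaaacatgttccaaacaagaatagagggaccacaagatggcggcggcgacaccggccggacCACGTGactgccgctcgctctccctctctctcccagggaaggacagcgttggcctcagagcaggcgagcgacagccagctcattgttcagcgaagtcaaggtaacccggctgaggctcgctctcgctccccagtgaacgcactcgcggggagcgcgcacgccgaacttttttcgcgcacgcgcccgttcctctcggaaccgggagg
Eif3a, host of Snora19, chr19:60790644-60790943, minus strand: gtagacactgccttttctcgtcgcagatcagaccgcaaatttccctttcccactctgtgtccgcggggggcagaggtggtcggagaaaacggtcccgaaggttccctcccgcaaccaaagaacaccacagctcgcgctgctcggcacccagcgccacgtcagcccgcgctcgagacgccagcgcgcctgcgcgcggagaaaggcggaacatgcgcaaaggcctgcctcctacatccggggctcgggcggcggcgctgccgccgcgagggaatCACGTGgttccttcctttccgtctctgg
CACGTG, which reads the same on both strands, occurred in 10 of 43 windows of host genes (23.3%) and in 7.15% of 32851 windows of all genes. The windows of all genes were not matched to those of the host genes, and the difference was not tested. A match is a description of the letters and does not show that a factor binds there. Of the 16 RNAs called in all 4 arms, 10 have a single host with a window, and the 3 shown are those that held CACGTG. The other 7, among them those of Nop58, Rpl4 and Sf3b3, held none.

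Proteins that work with these RNAs changed little between late and early night. Over the 4 arms, none of the measured core proteins of C/D particles (2), core proteins of H/ACA particles (4), assembly factors (11), Cajal body proteins (4) and trimming factors (16) was called. Nhp2, an H/ACA core protein, was at 0.31, and Exosc9, a subunit of the RNA exosome, at -0.37. Of 47 ribosomal protein genes 11 rose and none fell, with a median of 0.27. Of 9 other small noncoding RNAs, mostly made by RNA polymerase III, 5 rose and none fell, among them Rmrp, the RNA of RNase MRP, at 0.66, and Rpph1, the RNA of RNase P, at 0.65. Of 8 microglial markers 3 rose over the 4 arms, and the mean of their levels at CT22 was 6.73 to 6.77 in U0126-Light, 6.74 to 6.81 in U0126-Sham, 6.69 to 7.09 in DMSO-Light and 7.13 to 7.55 in DMSO-Sham, against 6.37 to 6.79 on the CT15 arrays. Their part in the result was not tested.

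Without light at CT15, H/ACA and C/D RNAs such as Snora31, Snora21, Snord42a and Snord13 were higher with U0126 than with DMSO. However, none was called with the 5S level as a covariate, and 2 of the 3 vehicle arrays had the lowest means over the members. Between U0126-Sham and DMSO-Sham at CT15, 21 of the 69 RNAs were higher and 0 were lower (30.4%), with 3.49% of all probe sets called, 3.41% higher and 0.0728% lower. They were 7 of 18 H/ACA RNAs, 13 of 45 C/D RNAs and 1 of 6 Cajal body RNAs. The median change was 0.39, against 0.01 over all probe sets, and the 3 and 3 arrays did not overlap for 23 members above and 3 below, where 19.8% of all probe sets did not overlap in either direction. All 18 measured RNAs on a list that the study drew from its own tests of these samples rose, so this count is not independent evidence. Leaving out DMSO-Sham CT15 replicates 2 and 3 together leaves 1 vehicle array, so that fit cannot decide whether the members differed. With the 5S level as a covariate 0 RNAs were called. With single arrays left out the count was 3 to 27. It was 6 when DMSO-Sham replicate 2 was left out, 3 for DMSO-Sham replicate 3 and 3 for U0126-Sham replicate 2.

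In the same comparison 93 of 96 probe sets of 5S ribosomal RNA rose, with a median of 1.82, and 12 of 26 small nuclear RNAs rose. Of 645 microRNA probe sets 14 rose and of 47 ribosomal protein genes 0 did, with a median of -0.08. None of the 29 host genes was called, and their changes lay between -0.16 and 0.20. Of 8 meningeal fibroblast markers 4 fell, and the means of their levels were 6.01, 5.50 and 5.50 in U0126-Sham CT15, against 6.37, 6.44 and 6.22 in DMSO-Sham CT15. The part of either in the result was not tested.

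Snord13, which in human cells acts on the small ribosomal subunit RNA and is transcribed from its own promoter, was 10.13, 10.45 and 10.00 in U0126-Sham at CT15, against 9.82, 8.33 and 8.46 in DMSO-Sham. The 3 drug arrays lay above the vehicle arrays, of which 1 was close to them, and the change was 1.32 (SE 0.321, adjusted p = 0.0212). Snora21, an H/ACA RNA in Rpl23, was 8.94, 9.29 and 8.90 in U0126-Sham, against 8.47, 7.36 and 7.73 in DMSO-Sham, a change of 1.19 (SE 0.25, adjusted p = 0.00855). Snora31, an H/ACA RNA in Tpt1, was 6.63, 7.07 and 6.93 in U0126-Sham, against 6.23, 5.71 and 5.92 in DMSO-Sham, a change of 0.92 (SE 0.175, adjusted p = 0.00399). Scarna8 was 3.70, 4.51 and 3.85 in U0126-Sham, against 3.33, 3.47 and 3.29 in DMSO-Sham, a change of 0.66 (SE 0.16, adjusted p = 0.0209), at a level near the dimmest members. The largest change of a C/D RNA was that of Snord58b, 1.35 (SE 0.405, adjusted p = 0.0731). Its probe set carries no gene identifier, and its name places it on another chromosome than the annotated Snord58b gene. Whether it measures that gene was not tested. The other called RNAs had changes of 0.47 (Snord73a) to 1.29 (Snord49b).

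**Figure D5:**
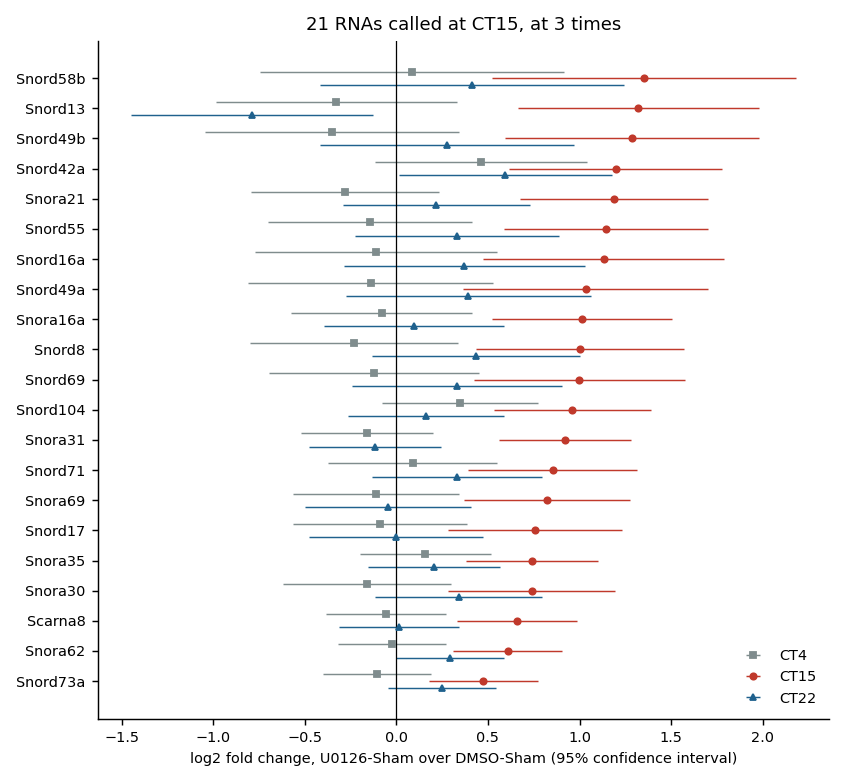
Log2 fold change with its 95% confidence interval, U0126-Sham over DMSO-Sham at CT4, CT15 and CT22, of the 21 RNAs called at CT15. The CT15 intervals lie above 0, and none of the 21 was called at CT4 or CT22.

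At CT4 and CT22 U0126 without light called 0 of 69 members, with 0% and 1.12% of all probe sets called, and 3 and 6 members had an unadjusted p under 0.05, against 5.56% and 9.01% of all probe sets. The difference of the drug effect between times was tested itself. It was larger at CT15 than at CT4 for Snora21 (1.47), Snora31 (1.08) and Snord13 (1.65) and smaller for Snord4a (-0.72), where 1.09% of all probe sets were called, 1.02% higher and 0.0697% lower. It was smaller at CT22 than at CT15 for Snora31 (-1.04) and Snord13 (-2.11), where 2.44% were called, 0.152% higher and 2.29% lower. Between CT22 and CT4 it was called for 0 members (0.382%). With the 5S covariate, or without the 2 DMSO-Sham CT15 arrays, none of these 6 differences was called.

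Snord13 was the only RNA called in opposite directions between late and early night. At CT22 it was 9.46, 8.97 and 8.42 in U0126-Sham, against 10.13, 10.45 and 10.00 at CT15, and in DMSO-Sham it was 10.08, 9.98 and 9.17 at CT22, against 9.82, 8.33 and 8.46 at CT15. Its changes were -1.24 (SE 0.321, adjusted p = 0.00554) in U0126-Sham and 0.87 (SE 0.321, adjusted p = 0.0793) in DMSO-Sham. In the Light arms they were -0.14 under U0126 and 1.59 in DMSO. Without DMSO-Sham CT15 replicates 2 and 3 the change in DMSO-Sham was -0.079, so its sign there rested on those arrays.

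With light, U0126 changed 1 member. Snord4a, a C/D RNA in Rpl23a, was 4.52, 4.27 and 4.24 in U0126-Light at CT15, against 4.85, 5.03 and 4.78 in DMSO-Light, and fell by 0.55 (SE 0.111, adjusted p = 0.0385), where 0.233% of all probe sets were called, 0.139% higher and 0.094% lower. At CT15 without light its change was -0.20 and was not called. The fall was not called with the 12 arrays of CT15 alone, nor without DMSO-Light replicate 2 or U0126-Light replicate 2 or 3. At CT4 and CT22 0 members were called, with 0.0136% of all probe sets called at each time. At CT4 Xist was at its low level on all 3 DMSO-Light arrays and at its high level on all 3 U0126-Light arrays. Drug and Xist level therefore cannot be told apart in that comparison.

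Light alone called no member. In vehicle 0 of 69 were called at CT4, CT15 and CT22, with 0%, 0.105% and 0.66% of all probe sets called, and under U0126 0 were called at each time, with 0% of all probe sets. In limma 16, 5 and 5 members had an unadjusted p under 0.05 for light in vehicle at CT4, CT15 and CT22, against 7.02%, 6.8% and 7.8% of all probe sets. Under U0126 5, 11 and 2 members did, against 4.27%, 4.51% and 4.83%. Light in vehicle at CT15 called 0 members without DMSO-Sham CT15 replicates 2 and 3. The largest rise in vehicle at CT15 was that of Snora21, 0.75 (95% confidence interval 0.23 to 1.26, adjusted p = 0.525), which was 0.13 without those 2 arrays, and at CT22 that of Snord13, 0.79 (0.13 to 1.45, adjusted p = 0.477). At CT4 29 members had all 3 DMSO-Light arrays below all 3 DMSO-Sham arrays and 3 had them above, where 11.6% of all probe sets did not overlap in either direction, and the members' median was -0.28. The mean level of 5S ribosomal RNA at CT4 was 9.22 to 9.46 on the DMSO-Light arrays, against 9.83 to 10.04 on the DMSO-Sham arrays, and Xist was at its low level on all 3 DMSO-Light arrays and on no DMSO-Sham array. The part of 5S ribosomal RNA and of Xist in the result was not tested. All U0126 arrays at CT4 had the high Xist level, so the difference of light responses at CT4 cannot be told apart from Xist level either. The light responses under U0126 and in vehicle differed for 0 members at each time, with 0% of all probe sets called, and for 0 at CT15 without those 2 arrays.

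In the main fit, comparisons with CT4 called fewer RNAs than CT22 against CT15 in the same arms. With the 5S covariate the count for U0126-Sham CT22 over CT4 was higher than in the main fit, as given below. In U0126-Sham, 4 members were higher and 2 lower at CT15 than at CT4, 8.7% of the members. Of all probe sets 4.71% were called, 4.24% higher and 0.476% lower. In the same arm, 10 members were higher and 4 lower at CT22 than at CT4, 20.3% of the members. Of all probe sets 4.1% were called, 2.09% higher and 2.01% lower. In DMSO-Sham, 3 were higher and 12 lower at CT15 than at CT4 (2.21%, with 1.02% higher and 1.2% lower). The median change of 5S ribosomal RNA in that comparison was -1.81, and 0 members were called without DMSO-Sham CT15 replicates 2 and 3. At CT22 against CT4, 3 were higher and 3 lower in DMSO-Sham (3.15%, with 1.95% higher and 1.2% lower). Snord64 was 9.30, 9.12 and 9.32 in U0126-Sham at CT15, against 8.42, 8.68 and 8.80 at CT4, and rose by 0.62 (SE 0.121, adjusted p = 0.00425). At CT22 it was 8.23, 8.46 and 8.08 in DMSO-Sham, against 8.66, 8.79 and 8.83 at CT4, and fell by 0.50 (SE 0.121, adjusted p = 0.0147). Snord70 rose at CT22 over CT4 by 0.99 (SE 0.205, adjusted p = 0.00642) in U0126-Sham and by 0.91 (SE 0.205, adjusted p = 0.00896) in DMSO-Sham. Snord11 rose by 1.29 (SE 0.243, adjusted p = 0.00342) in U0126-Sham at CT22 over CT4, against 0.55 (SE 0.243, adjusted p = 0.228), not called, in DMSO-Sham. In U0126-Sham Snora31 was higher at CT15 than at CT4 by 0.94 (SE 0.175, adjusted p = 0.0033).

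RNAs linked to the processing of the ribosomal RNA precursor were followed as a list, of which 7 of 12 were measured. Over the 4 arms at CT22 against CT15, 1 of the 7 rose, Snord17, which in humans is known as a methylation guide, at 0.59 (SE 0.116, adjusted p = 0.000137). Snord118, the U8 RNA that is needed for processing of the large subunit RNA and is transcribed from its own promoter, had 0.37 (SE 0.0593, adjusted p = 9.77e-06), just under the fold threshold. The U14 RNAs Snord14a and Snord14e had -0.13 and -0.03, and the U17 RNAs Snora73a and Snora73b, near-identical copies in Snhg3, had 0.17 and 0.10. The arms differed behind these averages. Of the 7, 6 were higher in DMSO-Light and 2 in DMSO-Sham, where 2.95% and 3.25% of all probe sets were higher. In U0126-Light 1 was higher (1.93%), and in U0126-Sham 0 were higher (3.41%) and 1 lower (9.87%). Snord14e, Snora73a and Snora73b changed by 0.43, 0.61 and 0.60 in DMSO-Light, all called, and lay between -0.34 and -0.04 in the U0126 arms. With the 5S covariate Snord14e was -0.086 in DMSO-Light. Neither Snora73a nor Snora73b can be read apart from the other with certainty. In U0126-Sham against DMSO-Sham at CT15, 2 of the 7 were called, Snord13 and Snord17. Of the 4 imprinted RNAs listed, Snord64 was measured by a single-symbol probe set.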

How the data were processed

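The authors hybridised total RNA of each pooled SCN sample to a GeneChip Mouse Transcriptome Assay 1.0 array, read the arrays in R with oligo and deposited log2 intensities per probe set, already normalized. The summarization call and any scan or extraction batch are not given in the sources used here. Control probe sets were left out, and 65956 remained. Limma 3.58.1 (R 4.3.3, data.table version 1.17.8) fitted 12 group means over 36 arrays, and p-values were adjusted by Benjamini-Hochberg within each comparison. Calls needed an adjusted p of at most 0.1 and more than 1.3-fold. Precision is limited by 3 arrays a group.

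The members and lists were chosen with earlier results of these data known. Up to 6 called RNAs per class with the largest change and no overlap of arrays were named, with the listed RNAs, their hosts, the particle proteins and the drug's targets; the sequences were chosen after values were seen. The light-arm and 4-arm time comparisons, the Xist covariate and the removal of 2 arrays were added after seeing the data. The fit was tested on simulated data.

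Same-numbered samples deviated together in 2 of 18 group pairs (every correlation over 0.1), so the numbers were not taken as a pairing. The pairs were DMSO-Light with U0126-Light at CT15 (0.33, 0.18 and 0.41) and DMSO-Sham with U0126-Sham at CT4 (0.25, 0.15 and 0.23). Both are drug comparisons, and the first is the one that called Snord4a.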

Additional observations from a re-analysis of the deposited data

Results flagged for a closer look

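The following RNAs had a U0126 effect without light that differed between times in limma's test of the difference itself. Between CT15 and CT4 the effect differed by 1.47 for Snora21 (SE 0.353, adjusted p = 0.0531), 1.08 for Snora31 (SE 0.248, adjusted p = 0.0419), 1.65 for Snord13 (SE 0.455, adjusted p = 0.0997) and -0.72 for Snord4a (SE 0.156, adjusted p = 0.0292). Between CT22 and CT15 it differed by -1.04 for Snora31 (adjusted p = 0.0282) and -2.11 for Snord13 (SE 0.455, adjusted p = 0.0133). All of these comparisons use the DMSO-Sham CT15 arrays, and none of the 6 was called without replicates 2 and 3 of that group.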

How the results depend on the processing

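Most counts of called RNAs kept within 1.5 times of their value: 339 of 360 did across the alternatives other than leaving out single arrays. This share includes comparisons that called 0 members in the main fit, among them light in vehicle and light under U0126 at each time. There a count of 0 that stayed 0 was taken as kept, so the share overstates how stable the other counts were. Of 4596 values of named RNAs under alternatives, 3949 kept direction and call, 619 lost the call and 28 changed sign. Cyclic loess, centring on named genes, array weights, the robust trend fit, the Xist covariate, single-symbol probe sets, averaging a gene's probe sets and dropping the fold threshold moved no count by over 1.5 times.

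With the 5S level as a covariate, the count was 0 for U0126 without light at CT15, 0 for the difference of drug effects between CT15 and CT4, 0 for that between CT22 and CT15, 1 for DMSO-Sham CT15 over CT4, 10 for U0126-Sham CT15 over CT4, 28 for U0126-Sham CT22 over CT4, 7 for DMSO-Sham CT22 over CT15, 8 for DMSO-Light CT22 over CT15, and 4 in all 4 arms. Without DMSO-Sham CT15 replicates 2 and 3, which leaves 1 array assumed to vary like the other groups, the count was 0 for U0126 without light at CT15, 0 for both differences of drug effects, 0 for DMSO-Sham CT15 over CT4, 5 for DMSO-Sham CT22 over CT15, and 5 in all 4 arms. With only the arrays of the time, U0126 at CT15 called 9 without light and 0 with light. At an adjusted p of 0.05, the count was 2 for the CT15 and CT4 difference, 2 for U0126-Sham CT15 over CT4 and 8 for U0126-Sham CT22 over CT4. With dim probe sets left out, U0126-Sham CT15 over CT4 gave 11.

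With the 5S covariate the sign changed for these RNAs. For U0126 without light at CT15 the values became -0.23 for Snora16a, -0.021 for Snora21, -0.15 for Snora30, -0.054 for Snora35, -0.083 for Snord104, -0.13 for Snord13, -0.27 for Snord16a, -0.40 for Snord17, -0.36 for Snord49a, -0.32 for Snord49b, -0.42 for Snord58b, -0.11 for Snord69, -0.15 for Snord71 and -0.24 for Snord8. The difference of drug effects between CT15 and CT4 became -0.076 for Snord13. In DMSO-Sham CT15 over CT4 the values became 0.055 for Snora30, 0.013 for Snora7a, 0.044 for Snord16a, 0.023 for Snord42a, 0.21 for Snord69 and 0.021 for Snord87. In DMSO-Sham CT22 over CT15 they became -0.0042 for Snora30 and -0.13 for Snord13, which was -0.079 without the 2 arrays. In DMSO-Light CT22 over CT15 they became -0.16 for Snora21, -0.0075 for Snord104, -0.086 for Snord14e and -0.031 for Snord17. The cause was not tested.

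Leaving out single arrays gave 3 to 27 for U0126 without light and 0 to 2 with light at CT15, 1 to 10 and 1 to 7 for the differences of drug effects of CT15 from CT4 and CT22 from CT15, 0 to 3 for the difference of light responses at CT15 and 0 to 1 for light under U0126 at CT15. For CT22 over CT15 it gave 13 to 31 in U0126-Light (13 without CT15 replicate 3), 22 to 27 in U0126-Sham, 19 to 35 in DMSO-Light (19 without CT15 replicate 3), 19 to 30 in DMSO-Sham, 28 to 33 for the average and 11 to 17 in all 4 arms. For CT15 over CT4 it gave 2 to 8 in U0126-Sham (2 without CT4 replicate 1, 3 without CT15 replicate 3) and 5 to 22 in DMSO-Sham (5 and 7 without CT15 replicates 2 and 3). For CT22 over CT4 it gave 7 to 14 in U0126-Sham (7 without CT22 replicate 3) and 3 to 5 in DMSO-Sham (3 without CT22 replicate 1 or 3). The other counts were 0 throughout.

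With the replicate number as a block, U0126 without light at CT15 called 22 RNAs and 17 were called in all 4 arms, and no count moved by over 1.5 times.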
